A study of Mus musculus with 4 samples.

Results

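Imprinted genes are expressed mainly from the copy inherited from 1 parent, and many of them set how far an embryo grows. The 10 genes described here were chosen by symbol: Igf2, H19, Mest and Dlk1, known for strong expression in embryonic mesenchyme, Peg3, Ndn and Meg3, known for expression in neural tissue, and Cdkn1c, Grb10 and Plagl1, known from both. They are 10 of the 24971 genes in the counts. The classes were taken from textbook knowledge and not from these data, and they do not exclude expression in other tissues. RNA had been sequenced from E12.5 mouse neural tubes on the C57BL/6 background, with 2 libraries labelled WT and 2 labelled Lbx1Δ/Δ. The mutant allele of Lbx1, a homeobox gene of dorsal spinal cord neurons, is not described further in the labels. Each library was a pool of tubes that came from littermates, and the labels number the libraries 1 and 2 within each genotype without saying what a number stands for. The p-values therefore concern differences between 4 pools, with the spread estimated in part across genes.

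Igf2 encodes a growth factor that signals through the receptor Igf1r and is cleared by Igf2r. H19 is a non-coding RNA next to Igf2, and the pair share enhancers and a control region whose methylation differs between the parental copies. Dlk1, a Notch-like membrane protein, and Meg3, a non-coding RNA, form a similar pair. Cdkn1c stops the cell cycle by binding cyclin-dependent kinases, Grb10 dampens signalling from insulin and IGF receptors, and Plagl1 is a zinc-finger factor that acts on other imprinted genes. Ndn encodes necdin, a growth suppressor of differentiating neurons. Peg3 is a large zinc-finger protein, and Mest an enzyme of the hydrolase family.

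Total counts were 16853984 to 20579803 per library, so that 3 counts, the level a count of 0 allows, equal 0.146 to 0.178 CPM, the count scaled to the library total. The targeted gene, Lbx1, had 819 counts in WT library 1, 1379 in WT library 2, and 1946 and 6520 in the Lbx1Δ/Δ-labelled pools. The targeted gene was thus not lower in the Lbx1Δ/Δ-labelled pools, and whether the allele leaves or raises its transcript was not tested. The counts do not show which part of the transcript they cover. Directions are therefore given between libraries as labelled. Tubb3, a tubulin of neurons, was at 1766 to 3748 CPM. Vim, listed here with the neural progenitor markers though not limited to them, was at 2455 to 2499 CPM. Col3a1, a collagen of connective tissue, was at 1641 to 2447 CPM.

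The promoters of Peg3, Plagl1 and Ndn are shown because these members differed between the libraries numbered 1 and 2 and have a single entry in the table. Each sequence is the 250 bases before the start, 5′ to 3′, from the RefSeq promoter table of GRCm38.p6, and capitals mark CpG, the dinucleotide that carries imprinting methylation. Peg3 lies on the minus strand at chr7:6730420-6730669, Plagl1 on the plus strand at chr10:13090582-13090831 and Ndn on the plus strand at chr7:62348027-62348276. These coordinates are not of mm9, the build named for the counts.
Peg3: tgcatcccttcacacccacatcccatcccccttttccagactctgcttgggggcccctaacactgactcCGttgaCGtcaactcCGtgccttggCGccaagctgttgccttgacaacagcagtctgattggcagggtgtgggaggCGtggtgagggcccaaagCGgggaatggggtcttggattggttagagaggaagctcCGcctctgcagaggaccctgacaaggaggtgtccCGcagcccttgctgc
Plagl1: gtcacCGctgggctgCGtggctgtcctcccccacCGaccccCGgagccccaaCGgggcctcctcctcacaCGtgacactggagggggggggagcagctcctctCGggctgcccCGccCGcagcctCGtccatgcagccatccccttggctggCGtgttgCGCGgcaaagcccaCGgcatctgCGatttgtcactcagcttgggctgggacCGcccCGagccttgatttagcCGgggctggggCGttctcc
Ndn: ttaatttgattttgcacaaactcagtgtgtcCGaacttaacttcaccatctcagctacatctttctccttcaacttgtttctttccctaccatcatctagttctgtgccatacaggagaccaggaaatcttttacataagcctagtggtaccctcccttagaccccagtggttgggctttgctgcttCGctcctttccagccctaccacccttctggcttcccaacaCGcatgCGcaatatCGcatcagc
The Plagl1 promoter held 19 CpG, that of Peg3 8 and that of Ndn 5, against a median of 6 over the 32851 promoters in the table. The palindrome GGGGCCCC, a GC-rich sequence of the kind that the Plagl1 protein binds and the same on both strands, was found in the Peg3 promoter, from base 50 of the sequence shown. It was found in 1 of the 15 promoters of the 8 members that matched the table and in 0.889% of all promoters. H19 and Cdkn1c had no entry.

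The deposited files count reads per RefSeq accession, and this set what could be measured for each member. The 10 members had 29 accessions, of which 12 held a count and 17 were at 0 in all 4 libraries. Peg3 and Ndn each had a single accession. H19 had 2 accessions and was listed at 0 in every library, which does not show that the RNA was absent. Gapdh, a glycolytic gene that every cell uses, also has 2 accessions and had 3 to 10 counts per library. Of genes with a single accession 41.3% had under 10 counts in total, and of genes with several 61.3% did. Whether reads shared by accessions were dropped was not tested.

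**Figure D1:**
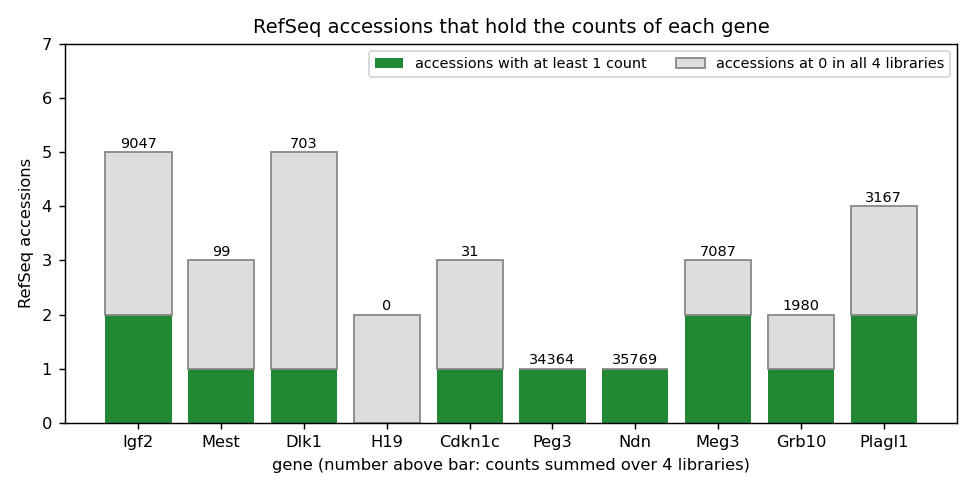
Number of RefSeq accessions of each gene on the vertical axis, split into those with a count (green) and those at 0 in all 4 libraries (grey); the number above each bar is the gene's summed count. H19 had no accession with a count, and Peg3 and Ndn had a single one each.

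All 703 counts of Dlk1 came from NR_033813, a non-coding accession, while its 4 coding accessions were at 0. All 99 counts of Mest came from 1 of 3 accessions, and all 31 of Cdkn1c likewise came from 1 of 3. For Igf2, NM_010514 held 98.6% of 9047 counts, and for Plagl1 NM_009538 held 99.5% of 3167. Meg3 was counted on NR_003633, with 76.1% of its counts, and NR_027652. How much of the RNA of Dlk1, Mest and Cdkn1c these counts cover was not tested. Levels are compared between libraries and not between genes, since the counts carry no length. Antisense transcripts lie beside Igf2 and Peg3 in the annotation, and with no strand setting given their reads cannot be told apart from those of the genes.

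The first comparison was between genotypes. None of the 8 members that passed the low-count filter was called different between WT and Lbx1Δ/Δ-labelled libraries. With edgeR's quasi-likelihood test 0 members passed an adjusted p of 0.05 and 0 had an unadjusted p below 0.05. Over all 10757 genes tested 0 passed, a background of 0%, and 55 (0.511%) had an unadjusted p below 0.05. DESeq2 also called 0, with 33 genes at an unadjusted p below 0.05. These fits do not take the replicate number into account. With the number as a block, edgeR called 92 of the 10757 genes, and 1359 had an unadjusted p below 0.05. None of the 92 was a member, and the labels do not establish pairing. The counts of Cdkn1c and H19 were too low to be tested. In edgeR without the block, fitted log2 differences ran from −0.22 (SE 0.41) for Igf2 to 0.38 (SE 0.26) for Dlk1, with 4 members on each side of 0. For 4 of the 8 the sign was the same within number 1 and within number 2, against 59.3% of all genes tested. The median was −0.081 for Igf2, Mest and Dlk1, 0.0075 for Meg3, Peg3 and Ndn, and −0.0026 over all genes tested.

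Igf2 had 162 CPM in WT library 1 and 105 CPM in WT library 2, against 153 and 77.5 CPM in Lbx1Δ/Δ-labelled libraries 1 and 2. The genotypes overlapped, and in both of them the library numbered 1 was the higher one. The genotype means were 133 ± 40.3 CPM and 115 ± 53.5 CPM (SD, n = 2 each). The fit without number turned to 0.15 without WT library 1 and to 0.20 without Lbx1Δ/Δ-labelled library 2. Leaving out 1 library also leaves the numbers unequal between the genotypes, so these turns do not show the sign within a number. Between same-numbered libraries Igf2 had −0.079 for number 1 and −0.43 for number 2. With the number as a block the fitted log2 difference was −0.26, which was not called (edgeR adjusted p = 0.246). In pools of whole tubes, fewer cells of a type and less RNA per cell cannot be told apart.

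Mest was at 2.09 and 0.649 CPM in WT and at 1.33 and 1.31 CPM in the Lbx1Δ/Δ-labelled libraries, from 43, 11, 23 and 22 counts. Both Lbx1Δ/Δ-labelled values lay between the WT values. Its log2 difference of −0.081 (SE 0.66) was 1.02 without WT library 1, and 95% counting intervals of the ratio between same-numbered libraries included no change for both numbers. Such intervals cover counting error only.

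Dlk1, on its non-coding accession, was the member whose genotypes did not overlap. It was at 8.26 and 8.85 CPM in WT and at 10.6 and 11.9 CPM in the Lbx1Δ/Δ-labelled libraries, a fitted ratio of 1.30. The higher value in the mutant-labelled library held within both numbers, with log2 differences of 0.36 (95% exact interval 0.052 to 0.67) and 0.42 (0.11 to 0.74). The edgeR test did not call it (unadjusted p = 0.207, adjusted p = 0.9998). Of all genes tested 11.3% were higher in both Lbx1Δ/Δ-labelled libraries with no overlap, and 9.31% were lower in both, so 1 of 8 members higher and 0 lower is near the background. The fitted difference stayed between 0.31 and 0.46 with any 1 library left out.

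Cdkn1c had 10 and 8 counts in WT and 4 and 9 in the Lbx1Δ/Δ-labelled libraries. These equal 0.486, 0.472, 0.232 and 0.534 CPM, a range within counting error at this depth.

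Peg3 had 615 CPM in WT library 1 and 379 CPM in WT library 2, against 587 and 306 CPM in the Lbx1Δ/Δ-labelled ones. Ndn was at 420 and 580 CPM in WT and at 398 and 620 CPM in the Lbx1Δ/Δ-labelled libraries. For both genes the genotypes overlapped and the numbers did not, with number 1 high for Peg3 and number 2 high for Ndn. Their genotype differences were −0.16 (SE 0.41) and 0.011 (SE 0.29) on the log2 scale. Leaving out WT library 1 turned these to 0.25 and −0.19, and leaving out Lbx1Δ/Δ-labelled library 2 to 0.24 and −0.33. Between same-numbered libraries Peg3 had −0.066 for number 1 and −0.31 for number 2, and Ndn had −0.078 and 0.098.

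Meg3 was at 95.5 and 101 CPM in WT and at 88.1 and 112 CPM in the Lbx1Δ/Δ-labelled libraries, which lay on either side of both WT values. Of its counted accessions, NR_003633 had 1529 and 1327 counts in WT and 1102 and 1438 in the Lbx1Δ/Δ-labelled libraries, and NR_027652 had 436, 391, 417 and 447. Without NR_027652 the fitted log2 difference was −0.047 in place of 0.0075.

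Grb10 was at 31.6 and 21.4 CPM in WT and at 35.1 and 21.4 CPM in the Lbx1Δ/Δ-labelled libraries. Plagl1 was at 52.5 and 40.7 CPM in WT and at 48.7 and 33.0 CPM in the Lbx1Δ/Δ-labelled libraries. In each genotype the library numbered 1 held more of both genes than the library numbered 2. The genotype differences were 0.080 (SE 0.36) for Grb10 and −0.20 (SE 0.29) for Plagl1, which turned to −0.33 and 0.062 without Lbx1Δ/Δ-labelled library 1 and 2, respectively. Without WT library 2 that of Grb10 turned to −0.18, and without WT library 1 that of Plagl1 to 0.016. Between same-numbered libraries Plagl1 had −0.11 for number 1 and −0.30 for number 2, and Grb10 had 0.15 and −0.0039.

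**Figure D2:**
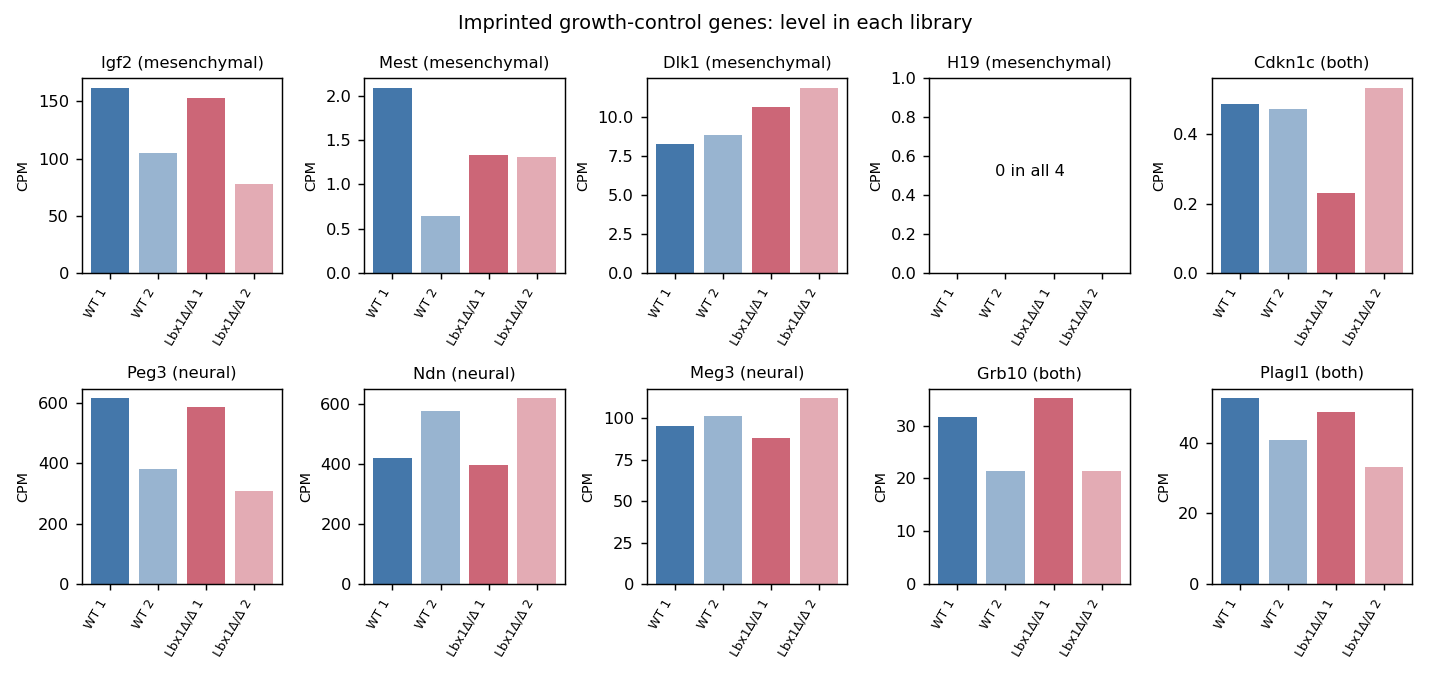
Level of each gene in CPM on the vertical axis, 1 bar per library, WT in blue and Lbx1Δ/Δ-labelled in red, with number 2 in the paler shade. Igf2, Peg3, Grb10 and Plagl1 are taller in the 2 libraries numbered 1, Ndn is taller in those numbered 2, and H19 is at 0.

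The second comparison was between the libraries numbered 2 and those numbered 1, with genotype as a covariate. Of the 8 members tested, 4 were lower and 1 was higher in the libraries numbered 2. This count stands beside a background of 35.6% of 10757 genes called (edgeR quasi-likelihood test, Benjamini-Hochberg adjusted p under 0.05), 17.8% lower and 17.8% higher. At an unadjusted p below 0.05 the background was 44.2%. The members were not tested against other genes. Since no source says what the numbers mark, the test compares these 4 pools. With so few libraries its p-values rest largely on the spread that edgeR shares across genes. For all 8 tested members the difference had the same sign in both genotypes, as it had for 78.3% of all genes tested. Without overlap between the numbers, 5 members were lower in number 2, where 31.9% of all genes were, and 2 were higher, where 34.1% were. The 5 include Mest, with 23 and 22 counts in Lbx1Δ/Δ-labelled libraries 1 and 2. Mest is also among the 8 with the same sign in both genotypes.

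Igf2 was 1.77-fold lower in the libraries numbered 2 (log2 −0.82, SE 0.096, edgeR adjusted p = 7.41e-06). The difference was −0.63 (95% exact counting interval −0.71 to −0.54) within WT and −0.98 (−1.08 to −0.89) within the Lbx1Δ/Δ-labelled libraries. Peg3, placed among the neural members, moved with Igf2 and was 1.79-fold lower (log2 −0.84, SE 0.10, edgeR adjusted p = 1.07e-05). Counts of Igf2 as a share of the counts of Igf2 and Peg3 together were 20.8% in WT library 1, 21.6% in WT library 2, and 20.7% and 20.2% in the Lbx1Δ/Δ-labelled ones. The exact 95% intervals of these 4 shares all overlapped, the widest gap being between 20.7% to 22.5% and 19.2% to 21.2%. A share of this kind does not depend on the library total.

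Grb10 and Plagl1 were 1.58-fold and 1.39-fold lower in the libraries numbered 2 (log2 −0.66, SE 0.15, and −0.48, SE 0.14; edgeR adjusted p = 0.00252 and 0.0119). Ndn was the member that was higher there, by 1.45-fold (log2 0.53, SE 0.098, edgeR adjusted p = 0.000499). There were 0.385 counts of Igf2 per count of Ndn in both libraries numbered 1, against 0.181 in WT library 2 and 0.1249 in Lbx1Δ/Δ-labelled library 2. Peg3 per count of Ndn was 1.46 and 1.48 in the libraries numbered 1 and 0.654 and 0.494 in those numbered 2. The WT and Lbx1Δ/Δ-labelled libraries numbered 1 differed by less than counting error in both ratios, and those numbered 2 were lower in both.

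Meg3, Dlk1 and Mest did not pass the test. Meg3 had a log2 difference of 0.20 (SE 0.092, edgeR adjusted p = 0.113), made up of 0.086 within WT and 0.34 within the Lbx1Δ/Δ-labelled libraries. Dlk1 had 0.11 (SE 0.20, adjusted p = 0.705 by edgeR). Mest had −0.84 (SE 0.52, adjusted p = 0.226 by edgeR), with −1.69 within WT and −0.031 within the Lbx1Δ/Δ-labelled libraries. The median was −0.82 for the mesenchymal members Igf2, Mest and Dlk1 and 0.20 for the neural members Meg3, Peg3 and Ndn, against 0.00014 over all genes. The neural median was −0.48 with Grb10 and Plagl1 counted as neural, and Peg3 was not tried in another class. The order of the classes was not tested, and their members did not share a direction.

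Leaving out either library numbered 1 ended the calls of the 5 members and nearly all calls over all genes. The fitted differences of these members stayed near their values. With 3 libraries a fit with genotype as a covariate has no residual degree of freedom, so leaving out was done in a fit on number alone, which assumes that the lone library varies like the others. Leaving out a library numbered 2 kept most calls, both of these members and over all genes. Plagl1 was not called without Lbx1Δ/Δ-labelled library 2. The loss or keeping of calls was thus not particular to the members. On number alone, the log2 difference of Igf2 was −0.81 with all libraries, −0.78 without WT library 1 and −0.84 without Lbx1Δ/Δ-labelled library 1. That of Peg3 was −0.83, −0.81 and −0.85, and that of Ndn 0.53, 0.56 and 0.50 in the same order. For Grb10 it was −0.66, −0.75 and −0.58, and for Plagl1 −0.47, −0.43 and −0.52. Directions were kept for these 5 members in all of these fits.

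**Figure D3:**
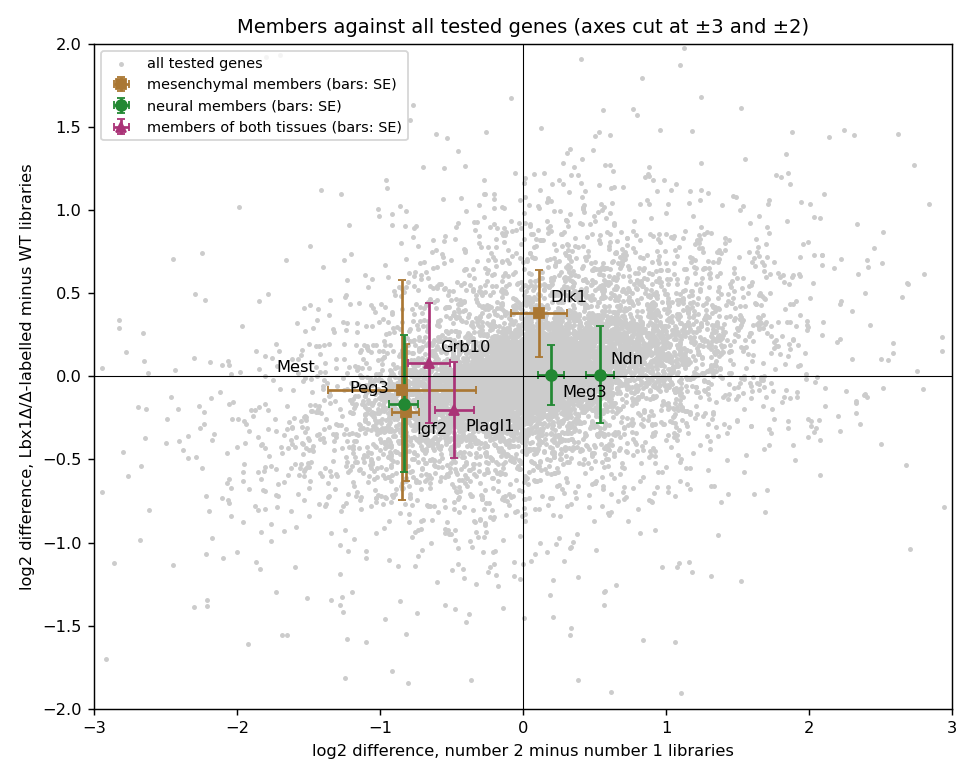
Fitted log2 difference between libraries numbered 2 and 1 on the horizontal axis against that between Lbx1Δ/Δ-labelled and WT libraries on the vertical axis, with all tested genes in grey and the 8 tested members in colour with SE bars; axes stop at ±3 and ±2. The members spread from −0.84 (Mest, Peg3) to 0.53 (Ndn) along the number axis and lie between −0.22 and 0.38 along the genotype axis.

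Markers of several cell types moved with the numbers, and their counts of calls stand beside 35.6% of all genes called, 17.8% in each direction. The 11 listed neuron markers summed to 5755 and 6310 CPM in WT and Lbx1Δ/Δ-labelled libraries numbered 1 and to 9936 and 11352 CPM in those numbered 2. All 7 tested neuron markers were higher in the libraries numbered 2 (edgeR), and Tubb3 had a log2 difference of 0.82 (SE 0.099). Of 12 tested mesenchyme markers 6 were lower and 0 higher, and their sum was 6804 CPM in WT library 1, 5089 in WT library 2, and 4917 and 4514 in the Lbx1Δ/Δ-labelled ones. Among defining mesenchyme markers Pdgfrb was at 0 in all libraries. Skeletal muscle markers were lower in 9 of 10, with sums of 981 and 839 CPM in number 1 and 469 and 148 CPM in number 2.

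Blood markers summed to 8162 and 5847 CPM in the libraries numbered 1 and to 2795 and 2597 CPM in those numbered 2, with 4 of 5 lower. The 9 tested neural progenitor markers had 3 higher and 1 lower, and their sums differed little, from 5932 to 6422 CPM. Surface ectoderm markers were lower in 4 of 6 and sensory ganglion or crest markers higher in 4 of 6 and lower in 1. Of 4 endothelial markers 1 was higher. Of 3 liver markers, 2 were higher and 1, Ttr, which choroid plexus also makes, was lower. The part of these cell types in the values of the imprinted genes was not tested. Igf2 and Peg3 differed by more between numbers within the Lbx1Δ/Δ-labelled libraries than within WT. The muscle sum also differed by more, and the mesenchyme sum by less. Col1a1, Col1a2 and Col3a1 gave 1393, 2104 and 2447 CPM of the mesenchyme sum of 6804 CPM in WT library 1. Single mesenchyme markers went both ways. Twist1, at 185 and 90.6 CPM in WT and 164 and 41.1 CPM in Lbx1Δ/Δ-labelled libraries 1 and 2, differed by more. Lum, at 238 and 129 CPM in WT and 159 and 108 CPM in the Lbx1Δ/Δ-labelled ones, differed by less.

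**Figure D4:**
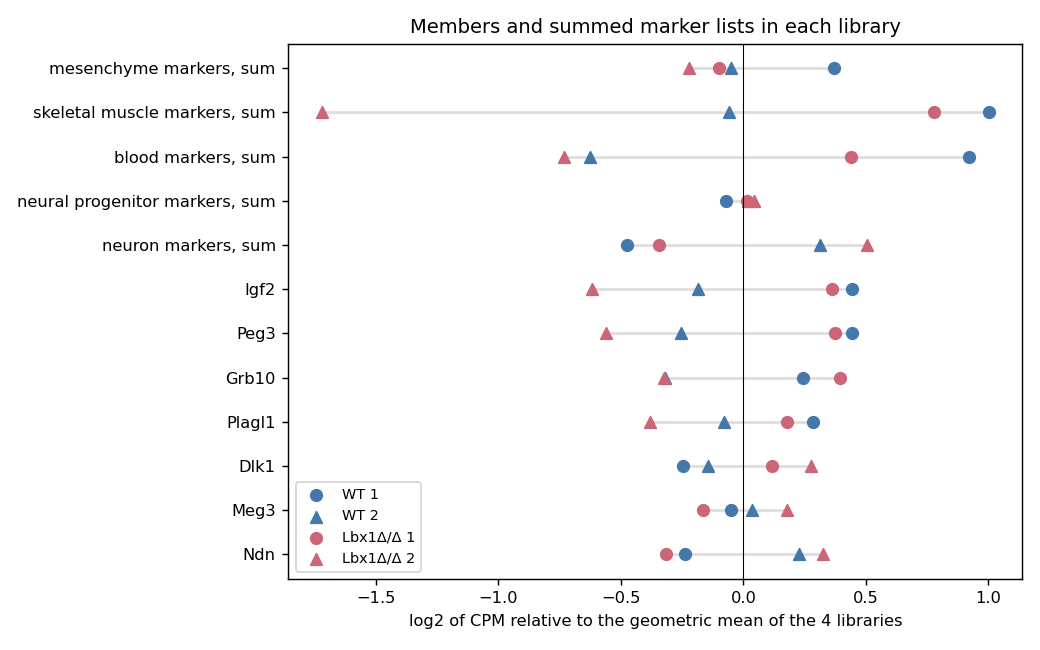
CPM of 7 members and summed CPM of 5 marker lists in each library, as log2 relative to the geometric mean of the 4 libraries; circles are libraries numbered 1, triangles those numbered 2, WT in blue and Lbx1Δ/Δ-labelled in red. The circles lie right of the triangles for Igf2, Peg3, Grb10, Plagl1, muscle and blood, and left of them for Ndn, Meg3, neurons and, by little, neural progenitors. For mesenchyme and Dlk1 circles and triangles overlap.

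Genes that lie beside the members were read next. The order of genes comes from the GRCm38 gene table. Zim1 and Usp29, which flank Peg3, were both lower in the libraries numbered 2, as Peg3 was. Usp29 was at 54.7 and 46.7 CPM in WT and Lbx1Δ/Δ-labelled libraries numbered 1 and at 25.8 and 18.2 CPM in those numbered 2 (log2 −1.24, SE 0.15, edgeR adjusted p = 9.01e-06). Zim1 had a log2 difference of −0.92 (SE 0.18, edgeR adjusted p = 0.000697). Both flanking genes thus had the direction of Peg3, and no genotype difference passed in either in the fit without number.

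The neighbours of Ndn went different ways. Magel2, which belongs with Ndn to the MAGE family, was at 33.3 and 35.1 CPM in number 1 and at 44.0 and 63.5 CPM in number 2 (log2 0.61, SE 0.15, edgeR adjusted p = 0.00369). Mkrn3 had a log2 difference of 0.32 (SE 0.15, edgeR adjusted p = 0.114). Peg12, in the same cluster, was lower in the libraries numbered 2 (log2 −0.48, SE 0.12, edgeR adjusted p = 0.00577).

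Beside Meg3, the non-coding RNAs Rian and Mirg and the coding genes Rtl1 and Dio3 did not pass the test of number. Begain, which lies near Dlk1 in the gene order, was higher in the libraries numbered 2 (log2 0.88, SE 0.14, edgeR adjusted p = 0.000165). Rian was at 1158 and 1428 CPM in WT and at 1077 and 1261 CPM in the Lbx1Δ/Δ-labelled libraries, a log2 difference between numbers of 0.25 (SE 0.10, edgeR adjusted p = 0.0679). Mirg had −0.13 (SE 0.15). Rtl1 had 127 and 36 counts in WT and 41 and 57 in the Lbx1Δ/Δ-labelled libraries, so that WT library 1 stood above the other 3. Kcnq1ot1, the non-coding RNA of the Cdkn1c cluster, had 0.12 (SE 0.17). Mkrn3, Rian, Mirg, Rtl1, Dio3, Kcnq1ot1 and Begain were named as neighbours after their values were seen.

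Of 54 other imprinted genes in the files, 34 were tested and 10 were at 0 in all libraries. In the genotype fit without number 0 were called (background 0%). Between numbers 9 were higher and 5 lower in the libraries numbered 2, with a median log2 difference of 0.28. Higher genes were Kcnk9, a potassium channel (1.25, SE 0.14), Nap1l5 (1.19, SE 0.10), Peg13, a non-coding RNA (0.96, SE 0.098), Begain (0.88, SE 0.14), Th, of catecholamine synthesis (0.77, SE 0.15), Gnas, a G protein subunit (0.76, SE 0.16), Magel2, H13 (0.44, SE 0.12) and Zrsr1 (0.39, SE 0.14). Lower genes were Airn (−1.47, SE 0.45), Usp29, Zim1, Peg12 and Igf2r. These 14 of 34 stand beside the background of 35.6%. Airn is antisense to Igf2r, and without strand its reads cannot be set apart from those of that gene.

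**Figure D5:**
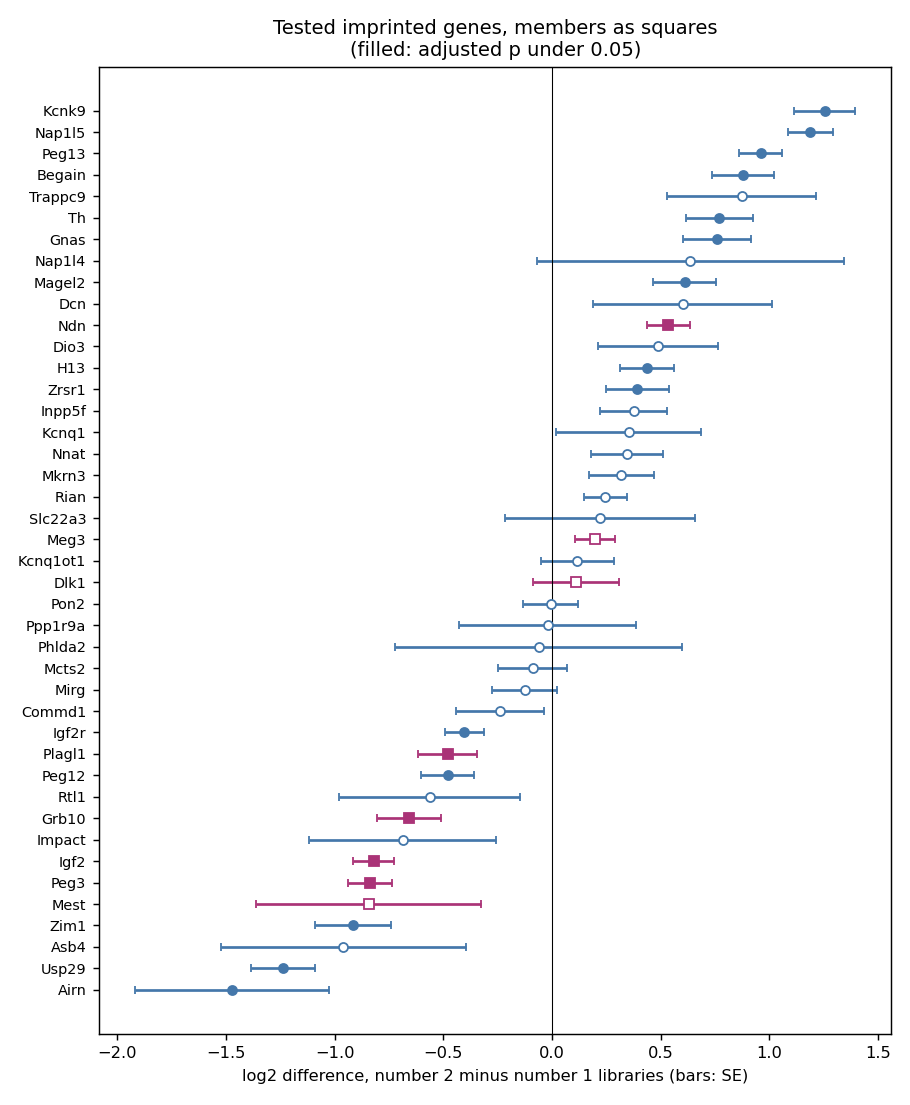
Fitted log2 difference between libraries numbered 2 and 1 with SE bars for the 34 other tested imprinted genes (circles) and the 8 tested members (squares); filled symbols passed an adjusted p of 0.05. Values run from −1.47 (Airn) to 1.25 (Kcnk9), with Igf2 and Peg3 at −0.82 and −0.84 and Ndn at 0.53.

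Of 18 tested IGF pathway genes, 7 were lower and 1 was higher in the libraries numbered 2, beside 17.8% of all genes each way. Their median log2 difference was −0.13, against 0.00014 over all genes, and 0 were called for genotype in the fit without number. Igf2bp1, Igf2bp2 and Igf2bp3 encode proteins that bind Igf2 mRNA, and their log2 differences were −0.95 (SE 0.10), −0.81 (SE 0.10) and −0.70 (SE 0.10). Igfbp3 and Igfbp4, secreted carriers of IGFs, had −1.19 (SE 0.086) and −0.73 (SE 0.10). Igf2r, the clearance receptor and itself imprinted, was at 445 and 372 CPM in number 1 and at 336 and 289 CPM in number 2 (log2 −0.40, SE 0.091). Irs4, an adaptor of the receptor, had −1.53 (SE 0.29), and Pik3r1, a kinase subunit, was the higher gene (0.89, SE 0.17). All of these passed with an edgeR adjusted p of 0.0026 or less, while Irs1 and Igfbp2 did not pass (0.248 and 0.561). Igfbp2 had 19.5 and 16.7 CPM in WT and 26.1 and 26.1 CPM in the Lbx1Δ/Δ-labelled libraries with no call (unadjusted p = 0.0685, edgeR adjusted p = 0.9998).

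Of 14 listed cell cycle genes related to Cdkn1c, 11 were tested, and 4 were lower and 2 higher in the libraries numbered 2, beside 17.8% of all genes each way. Their median log2 difference was −0.29, against 0.00014 over all genes, and 0 were called for genotype in the fit without number. Ccnd2 and Ccne1, cyclins of the G1 phase, had log2 differences of −1.17 (SE 0.11) and −1.10 (SE 0.12), Ccnd1 had −0.46 (SE 0.096) and Cdk4 −0.45 (SE 0.088). Cdkn1b, a relative of Cdkn1c, was at 144 and 130 CPM in number 1 and at 163 and 164 CPM in number 2 (log2 0.24, SE 0.081, edgeR adjusted p = 0.0305), and Rb1 had 0.39 (SE 0.080). Cdkn1a was at 0 in all libraries.

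The genes most like Igf2 and Ndn over the 4 libraries were found by the distance between their log2(CPM + 1) values, each centred on its own mean, among 6618 other genes with a mean of at least 10 CPM. For Igf2 these included Mtap, Trim59, Kif23 and Sdc1, at distances of 0.024 to 0.047, and Peg3 ranked 16. Mtap was at 152 and 98.1 CPM in WT and at 145 and 74.2 CPM in the Lbx1Δ/Δ-labelled libraries. Kif23 is a kinesin of cell division and Sdc1 a cell surface proteoglycan. For Ndn they were Pdxp, Gnaq, Nefm, Wasf1 and Avl9, at 0.039 to 0.059. Nefm, a neurofilament protein, was at 1029 and 1357 CPM in WT and at 930 and 1493 CPM in the Lbx1Δ/Δ-labelled libraries. With 4 libraries such likeness is a description, and 24 genes lay within 0.1 of Igf2 and 53 within 0.1 of Ndn.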

How the data were processed

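Reads per RefSeq accession were deposited by the authors as raw counts, whole numbers without normalization. The submitters' processing notes name build mm9 and the tools featureCounts 4.6.0.1, TopHat2 2.1.1 and edgeR 3.4.3. No source here names the annotation, the strand setting or the handling of reads shared by accessions. Of 41411 accessions, 41218 were named from a RefSeq table and 97 from GENCODE, and 96 stayed unnamed; named ones held 99.4% to 99.7% of each library's counts. Counts were summed per symbol into 24971 genes. edgeR 4.0.16 in R 4.3.3 (filterByExpr by group with a minimum count of 10 and total of 15, TMM, glmQLFit, glmQLFTest, Benjamini-Hochberg, two-sided, threshold 0.05) tested genotype alone and, separately, replicate number with genotype as covariate. SE was obtained from the log2 difference and its F statistic. Exact 95% intervals used scipy 1.17.1 and, like the 3-count floor, cover counting error only, since reads without molecular identifiers are not independent molecules. Alternatives were DESeq2 1.42.0, RLE or no TMM scaling, other filters, the largest accession per gene, a replicate block, number alone, and leaving out each library; the leave-one-out fits on number alone were added after seeing the data. The fits were tested on simulated data. The simulation for genotype held no difference between numbers, unlike these libraries. It therefore does not show how large a genotype difference could be detected here.

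The members and lists were chosen with earlier results of these data known. The genes named are all members. Each pathway list adds any called gene and up to 4 genes with the smallest p for each comparison at an average of at least 10 CPM. Each marker list adds up to 2 genes by mean CPM, and Igf2 and Ndn add the 5 genes most like each. Not all of the genes this rule selects are reported here. Further neighbours are named as stated.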

Additional observations from a re-analysis of the deposited data

Results flagged for a closer look

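Cdkn1c was looked at again because the libraries numbered 2 and 1 went opposite ways in the 2 genotypes. The log2 difference was −0.042 within WT, from 10 and 8 counts, and 1.20 within the Lbx1Δ/Δ-labelled libraries, from 4 and 9 counts. The exact 95% counting intervals were −1.59 to 1.45 and −0.64 to 3.36, so the values differ by less than counting error, and the difference between the genotypes was not tested.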

How the results depend on the processing

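No member was called for genotype under any alternative run, and Dlk1 stayed above 0 in all of them. With the replicate block 92 genes were called for genotype (29 higher, 63 lower; 1359 at an unadjusted p below 0.05), none of them a member (lowest member adjusted p 0.246, Igf2, edgeR). Differences between numbers in the 2 genotypes correlated at 0.657 across 10757 genes, which are not independent, but 2 shared numbers do not establish pairing. Under the replicate block the log2 genotype difference was −0.00038 for Meg3, 0.050 for Mest and −0.0033 for Ndn; that of Meg3 was −0.0017 with no filter and −0.047 with the largest accession. Leaving out 1 library gave genotype ranges of −0.80 to 0.20 for Igf2, −0.71 to 0.25 for Peg3, −0.68 to 1.02 for Mest, −0.33 to 0.41 for Grb10, −0.33 to 0.30 for Ndn, −0.16 to 0.17 for Meg3 and −0.51 to 0.062 for Plagl1. The count for number was 1 without WT library 1, 6 without Lbx1Δ/Δ-labelled library 1, 2387 without Lbx1Δ/Δ-labelled library 2 and 3917 without WT library 2, and Dlk1 was then −0.066 without WT library 1 and −0.090 without Lbx1Δ/Δ-labelled library 2. The neural median for number was −0.48 with Grb10 and Plagl1 counted as neural, since Cdkn1c was not tested. Plagl1 was not called for number without genotype (adjusted p = 0.0519, edgeR). The cause of these changes was not tested. Counts of 31 for Cdkn1c and 99 for Mest limit what could be seen.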
